A study of Mus musculus with 15 samples.

Results

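Mouse retinas of the CD-1 strain, taken at postnatal day 2, with Cre and both Neurog2 alleles floxed (MUT, 5 samples) were compared by bulk RNA-seq with retinas without Cre (WT, 5 samples). MUT retinas had the genotype Chx10Cre;Neurog2CKO/CKO and WT retinas the genotype Neurog2CKO/CKO, so both groups were homozygous for the floxed (Cre-removable) Neurog2 allele and differed in the presence of Cre. Loss of Neurog2 and presence of the Cre transgene therefore cannot be told apart in this comparison. A group with Cre and 1 floxed allele (HET, Chx10Cre;Neurog2CKO/+, 5 samples) is used for values set beside it. The members are the 13691 genes with 1 FPKM or more in MUT or WT after summing the transcripts of each gene symbol, of 15948 symbols in the deposited table for these groups and 16099 in the whole series. FPKM is the number of fragments scaled to transcript length and to all mapped fragments. Each FPKM value is 1 pooled value per group, so it carries no standard deviation, and sequencing depth is not known for any sample.

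Neurog2 encodes a proneural basic helix-loop-helix (bHLH) transcription factor, which pairs with an E protein, binds E-box DNA sequences and moves progenitors towards a neuronal fate. In the mouse retina it is present in a subset of progenitor cells, and other proneural factors such as Atoh7 act in overlapping or neighbouring progenitors. Chx10Cre drivers can act in a mosaic of cells, so that cells without recombination may remain. All 12 genes used to check the tissue, markers of progenitors and of the main retinal cell classes, had 1 FPKM or more in both groups. These were bulk samples, in which fewer cells of a type and less RNA per cell cannot be told apart.

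Neurog2 (ENSMUSG00000027967.8) lies on chromosome 3, bases 127633135 to 127635631 of mm10, on the plus strand, and its 1 listed transcript has 2 exons and 2227 nt. It measured 10.6 FPKM in MUT, 42.4 FPKM in HET and 59.5 FPKM in WT, so that the MUT level was 17.7% of the WT level and HET lay between the other groups. In the authors' deposited table its log2 fold change was -2.49 ± 0.32 (p = 5e-05, q = 0.0388), where the error is the one implied by the deposited test statistic. The deposited p-values and q-values do not follow from errors of this kind, here or below.

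Most genes differed little between MUT and WT. The log2 ratio of gene sums, taken with 0.1 FPKM added to each group, had a median of 0.01 over the 13691 genes and a middle 50% between -0.06 and 0.08. The ratio lay within 1.25-fold for 91.5% of genes, and for 95.8% of the 12289 protein-coding genes. It was above 0 for 7334 genes (53.6%) and below 0 for 6357 genes (46.4%). Just inside the 1 FPKM limit were Gm15513, at 1.00 FPKM in MUT and 0.942 FPKM in WT, and Itpa-ps1, at 1.01 FPKM in MUT and 0.746 FPKM in WT. Just outside it were Pcdhb2, at 0.999 FPKM in MUT and 0.944 FPKM in WT, and Ntsr2, at 0.992 FPKM in MUT and 0.999 FPKM in WT. Below, called means that the authors gave the transcript a q-value under 0.05. The authors' deposited table called 51 of 44526 transcripts (0.115%), 12 higher and 39 lower in MUT (0.027% and 0.0876%), every one at the smallest deposited p of 5e-05 with q = 0.0388. The next p, 0.0001, carried a q of 0.0726, so that the list of calls ends at the resolution of the p-values. At an unadjusted p under 0.05 there were 379 transcripts (0.851%), 164 higher and 215 lower in MUT (0.368% and 0.483%). Of the 13691 genes, 49 had a called transcript (0.358%), 11 with a higher and 38 with a lower one in MUT (0.0803% and 0.278%), and for 41 of these 49 it was the gene's sole listed transcript.

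**Figure D1:**
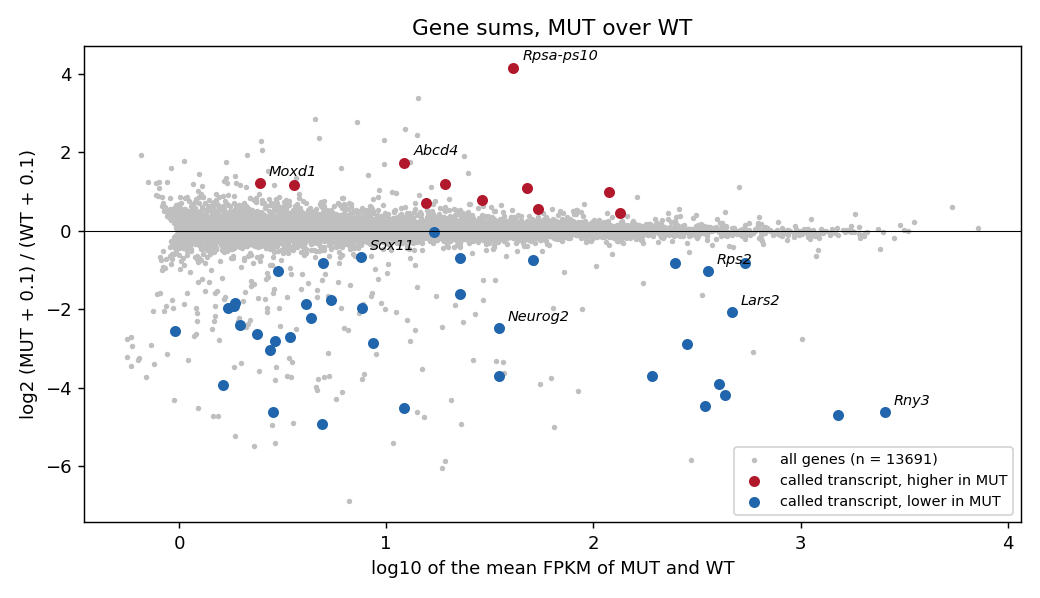
Each point is 1 of the 13691 genes, with log10 of its mean FPKM in MUT and WT on the x axis and the log2 ratio of MUT over WT (0.1 FPKM added) on the y axis; red and blue points have a called transcript that is higher or lower in MUT. Most genes lie near 0, and the largest ratios away from 0 include Rny3 at -4.62 and Rpsa-ps10 at 4.16; the blue point near 0 is Cacna1g, called in 1 of its 10 transcripts.

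Among protein-coding genes outside the histone and ribosomal protein families, 2 transcription factors of neuronal differentiation other than Neurog2 were called lower in MUT. Neurod2, a bHLH factor of a subset of amacrine cells, measured 3.55 FPKM in MUT, 5.32 FPKM in HET and 6.35 FPKM in WT. Its log2 fold change of MUT over WT in the authors' deposited table was -0.84 ± 0.42 (q = 0.0388). Sox11, a SoxC factor of newborn neurons, measured 5.81 FPKM in MUT, 6.77 FPKM in HET and 9.35 FPKM in WT. Its log2 fold change in the authors' deposited table was -0.69 ± 0.31 (q = 0.0388). Both genes fell, and in both the HET level lay between the others.

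The 250 bases before the RefSeq start of these genes are printed because proneural factors bind E-boxes (CANNTG, here in capitals; the motif reads the same on both strands); the sequences are from the RefSeq promoter table, build GRCm38.p6, and are written 5′ to 3′ on the gene's strand, which is minus for both. The Neurod2 window is chr11:98329646-98329895 and the Sox11 window is chr12:27342719-27342968.
Neurod2: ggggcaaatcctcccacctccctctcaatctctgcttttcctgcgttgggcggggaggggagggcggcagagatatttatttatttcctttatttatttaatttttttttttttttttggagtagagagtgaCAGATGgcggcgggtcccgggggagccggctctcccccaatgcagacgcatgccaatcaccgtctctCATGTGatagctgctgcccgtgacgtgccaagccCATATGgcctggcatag
Sox11: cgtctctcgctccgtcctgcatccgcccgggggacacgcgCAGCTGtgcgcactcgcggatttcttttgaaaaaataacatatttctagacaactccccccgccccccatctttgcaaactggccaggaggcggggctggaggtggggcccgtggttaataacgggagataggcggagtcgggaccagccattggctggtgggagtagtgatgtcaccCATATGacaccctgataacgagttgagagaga

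The Neurod2 window held 3 CANNTG motifs and the Sox11 window 2. Of 32851 RefSeq promoter windows of the same length, 66.2% held at least 1 CANNTG. The version CATATG, present in both windows, was in 3.46% of all windows, and CAGATG, present in that of Neurod2, in 14.4%. CAGCTG, present in the Sox11 window, was in 13.0%. The share for CATGTG, also in the Neurod2 window, was not computed. The corresponding windows of Moxd1, Zic1 and Lars2 held 1 CANNTG each, and those of Neurog2, Cldn5 and Ptn held 0. No window was available for Hes2, Abcd4 or Cacna1g, so not all called protein-coding genes are covered. These matches describe letters and not binding.

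Hes2, a bHLH-Orange factor of the Hes repressor family, measured 1.94 FPKM in MUT, 4.77 FPKM in HET and 4.06 FPKM in WT. For the called transcript the authors' deposited table gave a log2 fold change of -1.16 ± 0.58 (q = 0.0388). Thus Hes2 fell in MUT, while its HET level was above that of WT. The level assigned to Lars2, which encodes the mitochondrial leucyl-tRNA synthetase, fell, with 179 FPKM in MUT, 348 FPKM in HET and 752 FPKM in WT. Whether all reads assigned to Lars2 came from its mRNA was not tested. Its log2 fold change in the authors' deposited table was -2.07 ± 0.45 (q = 0.0388). For Cacna1g, which encodes a T-type calcium channel subunit, 1 of 10 transcripts was called lower, at 2.21 FPKM in MUT and 4.08 FPKM in WT, while the gene sum was 16.7 FPKM in MUT and 17.2 FPKM in WT. The gene as a whole thus had a log2 ratio of -0.04.

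Of the protein-coding genes with a called rise, Abcd4, which encodes a transporter of cobalamin, had the largest ratio among those with 1 FPKM or more. It measured 18.9 FPKM in MUT, 19.3 FPKM in HET and 5.60 FPKM in WT. The authors' deposited table gave 1.75 ± 0.36 for its log2 fold change of MUT over WT (q = 0.0388). Abcd4 lies on chromosome 12, bases 84602531 to 84617466 of mm10.

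Moxd1, a monooxygenase-like protein, rose, with 3.47 FPKM in MUT, 4.33 FPKM in HET and 1.45 FPKM in WT. Zic1, a zinc finger transcription factor of neural progenitors, rose, with 36.5 FPKM in MUT, 31.8 FPKM in HET and 21.3 FPKM in WT. Their called transcripts had log2 fold changes of 1.26 ± 0.54 and 0.79 ± 0.38 in the authors' deposited table (q = 0.0388 each). Cldn5, the claudin of endothelial tight junctions, rose, with 19.2 FPKM in MUT, 13.9 FPKM in HET and 11.8 FPKM in WT. Ptn, the secreted growth factor pleiotrophin, rose, with 155 FPKM in MUT, 127 FPKM in HET and 113 FPKM in WT. The log2 fold changes of Cldn5 and Ptn in the authors' deposited table were 0.70 ± 0.38 and 0.46 ± 0.27 (q = 0.0388 each). Eda2r, a receptor of the tumour necrosis factor receptor family, was called higher at 0.501 FPKM in MUT and 0.130 FPKM in WT, below the 1 FPKM limit in both. Thus the HET levels of Abcd4 and Moxd1 were at or above those of MUT, whereas those of Zic1, Cldn5 and Ptn lay between MUT and WT. In the tables with HET no transcript reached q under 0.05, with 227 at an unadjusted p under 0.05 for HET over WT (0.515%) and 358 for MUT over HET (0.814%). The difference between the HET and MUT effects was not tested as such.

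**Figure D2:**
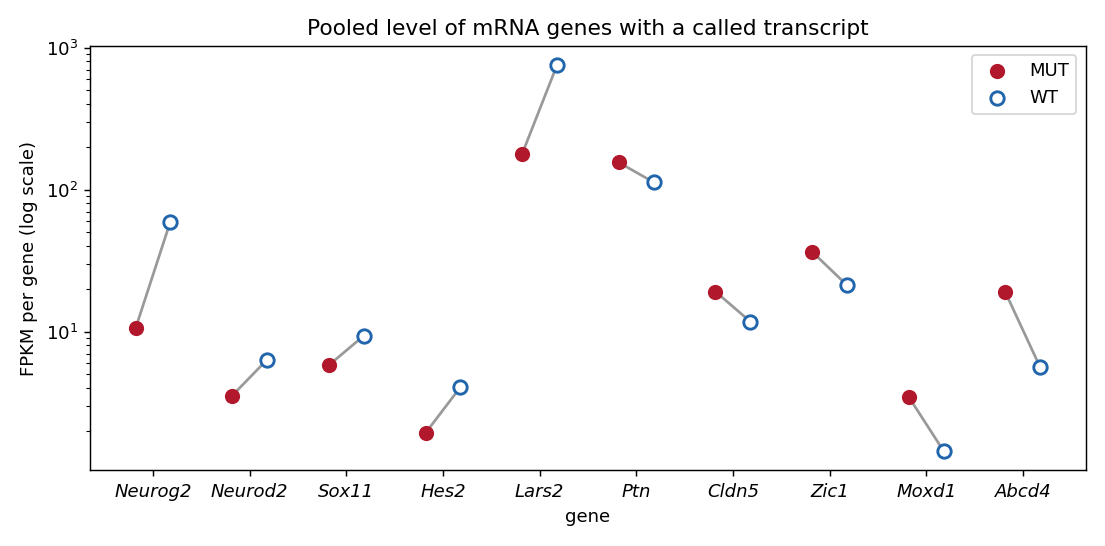
Pooled FPKM per gene on a log axis for 10 protein-coding genes with a called transcript, MUT filled and WT open, joined by a line; each symbol is 1 pooled value of 5 samples. Neurog2, Neurod2, Sox11, Hes2 and Lars2 are lower in MUT, and Ptn, Cldn5, Zic1, Moxd1 and Abcd4 are higher.

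Further protein-coding genes at 5 FPKM or more differed only at an unadjusted p in their most abundant transcript, 49 higher and 57 lower in MUT, and none of these passed q under 0.05. The lowest ratio among them was that of Atp6v0c, a subunit of the vacuolar proton pump, at 46.8 FPKM in MUT and 97.8 FPKM in WT (log2 ratio -1.06). Atoh7, the bHLH factor of retinal ganglion cell competence, had 9.94 FPKM in MUT, 15.2 FPKM in HET and 16.03 FPKM in WT, a log2 ratio of MUT over WT of -0.68 (p = 0.01985 in the authors' deposited table). Lamp5, a lysosome-associated membrane protein of neurons, had 5.94 FPKM in MUT and 11.7 FPKM in WT (log2 ratio -0.96), and Robo3, an axon guidance receptor, 29.7 FPKM in MUT and 46.1 FPKM in WT (-0.63). Lysmd1 (-0.67), the glycolytic enzyme gene Pgam1 (-0.60), the gamma-secretase subunit gene Aph1a (-0.56), Zc3h3 (-0.49) and Igfbpl1 (-0.47) were also among the 10 lowest log2 ratios. Of these, Atoh7 and Igfbpl1 had HET over WT log2 ratios near 0, at -0.07 and 0.04, whereas Atp6v0c, Lysmd1 and Aph1a had -1.02, -0.65 and -0.57.

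The 10 highest log2 ratios of that kind were led by the zinc finger gene Zfp949, at 12.4 FPKM in MUT and 6.03 FPKM in WT (1.03). Cathepsin S (Ctss) had 11.8 FPKM in MUT and 6.49 FPKM in WT (0.85), the complement gene C1qc 17.1 FPKM in MUT and 10.4 FPKM in WT (0.72), and Fcrls 6.83 FPKM in MUT and 4.36 FPKM in WT (0.64). These 3 are microglia genes. Luzp2 had 23.3 FPKM in MUT and 15.3 FPKM in WT (0.61). The others were Bcas1 (0.71), Gm10131 (0.69), Rpl9-ps6 (0.65), Epb4.1l4b (0.65) and Gm10282 (0.62).

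Lists of genes for the cell classes and processes of the developing retina were set beside all 13691 genes (median log2 ratio 0.01, 0.358% with a called transcript). Of 20 proneural bHLH genes and their E and Id partners, 12 were lower and 8 higher in MUT, with a median of -0.10, and 2 were called, Neurog2 and Neurod2. Nhlh1, a bHLH factor of newborn neurons, had 1.79 FPKM in MUT and 3.12 FPKM in WT (p = 0.00165 in the authors' deposited table). Id1, an inhibitor of bHLH factors, had 116 FPKM in MUT and 96.5 FPKM in WT, a log2 ratio of 0.26. Of 25 genes of newborn neurons, 18 were lower and 7 higher, with a median of -0.09, and Sox11 alone was called. Gadd45a, at 18.3 FPKM in MUT and 24.4 FPKM in WT, and Rgs16, at 46.3 FPKM in MUT and 36.2 FPKM in WT, were among its outermost members.

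Photoreceptor genes lay below 0 on balance. Of 15 photoreceptor transcription factors 11 were lower in MUT, with a median of -0.10 and 0 called; at unadjusted p under 0.05 there were 2. Neurod1 had 120 FPKM in MUT and 144 FPKM in WT, Nrl, the rod determinant, had 125 FPKM in MUT and 147 FPKM in WT, and Crx had 204 FPKM in MUT and 217 FPKM in WT. Of 30 genes of rod phototransduction and outer segments 26 were lower in MUT, with a median of -0.20, and 1 was called lower. Sag, rod arrestin, had 155 FPKM in MUT and 194 FPKM in WT, a log2 ratio of -0.32 (p = 0.0098 in the authors' deposited table). Gnat1, rod transducin, had 1.76 FPKM in MUT and 2.64 FPKM in WT, and Reep6 5.65 FPKM in MUT and 7.78 FPKM in WT. The 12 cone genes had a median of 0.01 with 0 called.

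Other neuronal classes stood closer to the median of all genes. The 29 amacrine genes had a median of -0.04 and 1 call, Neurod2. The 28 ganglion cell genes had a median of 0.00, the 11 horizontal cell genes -0.06 and the 14 bipolar cell genes -0.04, with 0 called in each and 0 at unadjusted p under 0.05. Pou4f2, a ganglion cell factor, had 8.24 FPKM in MUT and 8.48 FPKM in WT. The 33 genes of synaptic vesicles and release had a median of -0.05 and the 35 axon guidance genes 0.03, again with 0 called. The median was 0.03 for 50 splicing and RNA-binding protein genes, -0.02 for 17 immediate early and stress genes and -0.00055 for 31 hypoxia and glycolysis genes, with 0 called in each.

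Progenitor and glial genes lay above 0 on balance. Of 28 progenitor transcription factors 22 were higher in MUT, with a median of 0.11, and Zic1 was called. When the most abundant transcript of each gene was used in place of the sum, that median was -0.0005, with 14 of the 28 below 0. Fgf15, a secreted growth factor of progenitors, had 77.2 FPKM in MUT and 63.3 FPKM in WT (p = 0.02095 in the authors' deposited table), and Rax, a homeobox gene shared by progenitors and photoreceptors, had 105 FPKM in MUT and 134 FPKM in WT. Of 26 Müller glia genes 19 were higher, with a median of 0.10, and Ptn was called. Of 41 genes of G2 and mitosis 37 were higher, with a median of 0.13 and 0 called, and the highest was Cenpf, a kinetochore protein, at 39.0 FPKM in MUT and 31.8 FPKM in WT. Of 40 DNA replication genes 31 were higher, with a median of 0.06 and 0 called. The exception in size was Fen1, a flap endonuclease, at 3.29 FPKM in MUT and 12.2 FPKM in WT, with 0 of its 4 transcripts at an unadjusted p under 0.05. The median was 0.10 for the 16 G1 cyclins and inhibitors, 0.07 for 26 apoptosis and p53 target genes and 0.02 for the 31 Notch pathway genes, in which Hes2 was called lower. Against WT, the mitosis list stood at 0.09 in HET with the same WT samples.

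**Figure D3:**
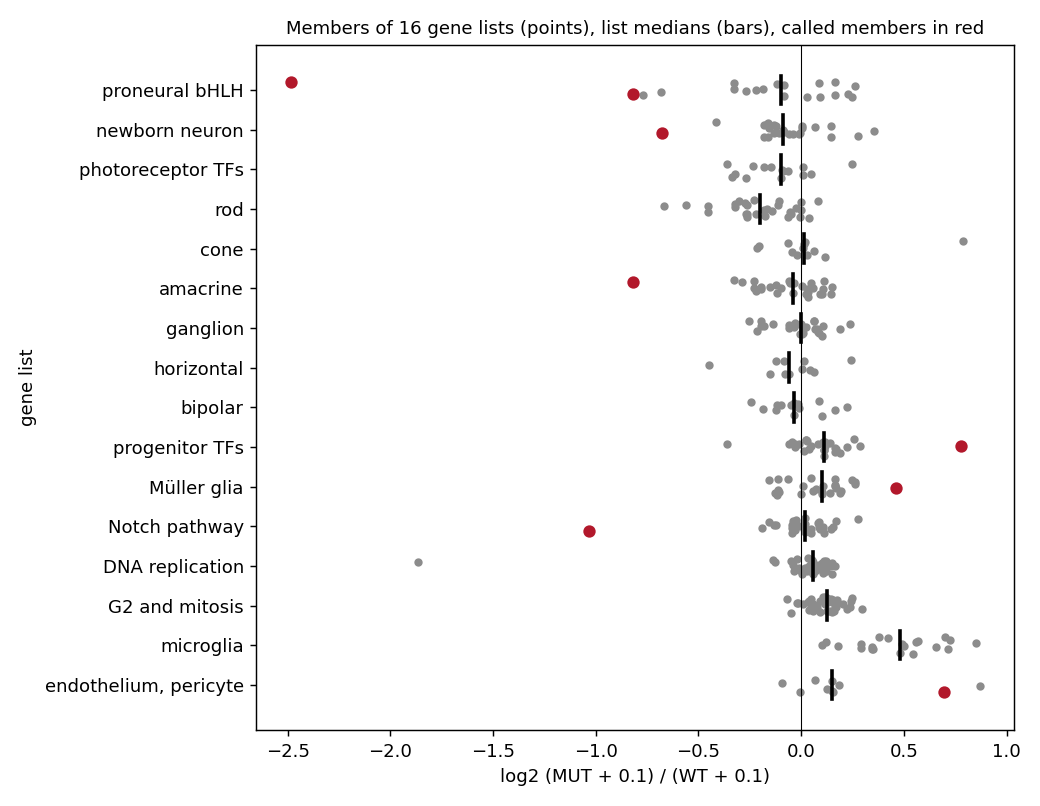
Log2 ratios of gene sums, MUT over WT (0.1 FPKM added), for the measured members of 16 lists; each grey point is a gene, red points have a called transcript, black bars are list medians, and 1 rod gene is not drawn. The microglia points all lie above 0, with a median of 0.48, and the rod points lie mostly below 0, with a median of -0.20.

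Among lists of markers for cells other than retinal neurons and Müller glia, those of microglia, blood vessels and astrocytes had medians above 0. All 21 microglia and macrophage genes were higher in MUT, with a median log2 ratio of 0.48; their summed level was 207 FPKM in MUT and 157 FPKM in WT, 0 were called and 9 were at an unadjusted p under 0.05, against 2.39% of all genes. C1qa had 21.8 FPKM in MUT and 14.7 FPKM in WT, Aif1 3.54 FPKM in MUT and 2.21 FPKM in WT, and the receptor Cx3cr1 2.57 FPKM in MUT and 2.38 FPKM in WT. In HET the median over WT was 0.30, over 22 genes. Of 10 endothelial and pericyte genes 8 were higher, with a median of 0.15 and sums of 183 FPKM in MUT and 162 FPKM in WT, and Cldn5 was called; the endothelial receptor Kdr had 115 FPKM in MUT and 105 FPKM in WT. Of 10 astrocyte genes 7 were higher and 3 lower, with a median of 0.22 and 0 called, while their summed level was 909 FPKM in MUT and 964 FPKM in WT. Gfap had 9.33 FPKM in MUT and 7.24 FPKM in WT, and Fabp7, the most abundant of them, 598 FPKM in MUT and 686 FPKM in WT. The 6 pigment epithelium genes had a median of 0.04 and the 3 red blood cell genes 0.28, with 0 called. Few of the listed markers of lens (3 of 20), skeletal muscle (4 of 19) and stroma (1 of 18) reached 1 FPKM, with medians of -0.12, 0.13 and -0.25 and 0 called. Xist, transcribed from the inactive X chromosome, had 135 FPKM in MUT and 98.8 FPKM in WT, and the Y-linked gene Kdm5d 0.00117 FPKM in MUT and 3.73 FPKM in WT. Kdm5d was listed with a retained-intron transcript and a nonsense-mediated decay transcript (p = 0.2944 and 0.2251 in the authors' deposited table). Of the 2 chromosome Y genes with 1 FPKM or more, 1 was 2-fold lower in MUT and the other lay within 1.25-fold. Their median level was 79.13 FPKM in MUT and 94.96 FPKM in WT, so levels assigned to chromosome Y were present in both groups. The labels give no sex. The part of these cell types and of sex in the values of other genes was not tested.

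The largest departures were in RNAs other than ordinary mRNA. At 2-fold or more, 49 genes were higher (0.358%) and 187 lower (1.37%) in MUT. The 187 lower genes held 101 small RNA genes, 32 histone genes, 16 pseudogenes and 19 other protein-coding genes, and the 49 higher ones 20 small RNA genes, 17 pseudogenes and 8 protein-coding genes. Of the 187, 96 reached 1 FPKM in WT alone, and of the 49, 20 reached it in MUT alone, and genes that passed in this way had to differ. A transcript was called in 31 of the 187 and in 6 of the 49.

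Rny1 and Rny3 encode Y RNAs, small RNA polymerase III transcripts bound by the Ro60 protein, and they showed the widest gap at a high level. Their sequences, read from GENCODE M21 on GRCm38 and written 5′ to 3′, are shown because RNAs of this kind end in a run of U (T as DNA, here in capitals), not in a poly(A) tail.
Rny1: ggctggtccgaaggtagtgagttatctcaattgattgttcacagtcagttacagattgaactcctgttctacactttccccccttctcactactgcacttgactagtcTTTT
Rny3: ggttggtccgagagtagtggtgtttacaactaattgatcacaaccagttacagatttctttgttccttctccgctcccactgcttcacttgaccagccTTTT

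Rny1 (chromosome 6, bases 47788069 to 47788180, minus strand) fell, with 111 FPKM in MUT, 346 FPKM in HET and 2910 FPKM in WT. Rny3 (bases 47781624 to 47781725, plus strand) fell, with 199 FPKM in MUT, 354 FPKM in HET and 4887 FPKM in WT. In the authors' deposited table the log2 fold changes were -4.71 ± 0.07 and -4.62 ± 0.06 (q = 0.0388 each). Both HET levels were nearer to MUT than to WT. Rn7sk, the small nuclear RNA that holds the elongation factor P-TEFb, fell to 27.2 FPKM in MUT, against 358 FPKM in WT. Rpph1, the RNA of ribonuclease P, fell to 4.90 FPKM in MUT, against 65.1 FPKM in WT. Gm24265 and Gm24407, 2 small nuclear RNA genes with 139 of 141 bases identical, were both called lower, at 44.7 and 29.5 FPKM in MUT and 823 and 661 FPKM in WT, and their reads cannot be well assigned to either. The listed small RNA genes had a median of -2.10, with 52 of 62 lower in MUT and 17 of the 62 above 1 FPKM in WT alone. Over all gene classes, small RNA genes made up 1.82% of the summed FPKM in MUT and 3.73% in WT. Rny1 and Rny3 have 112 and 102 nt, and ratios of such short RNAs were widely spread. Of 171 genes whose most abundant transcript had at most 200 nt, 9.94% lay within 1.25-fold. At 2-fold or more, 21 of them were higher and 86 lower in MUT. How far FPKM values are reliable at these lengths was not tested.

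Replication-dependent histone mRNAs, which in animals end in a conserved stem-loop rather than a poly(A) tail, were also lower. The stem-loop window of 30 bases is shown for 4 called genes of chromosome 13 (GENCODE M21, GRCm38, transcript strand, 5′ to 3′), with the motif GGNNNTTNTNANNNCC, searched on the transcript strand, in capitals.
Hist1h4c: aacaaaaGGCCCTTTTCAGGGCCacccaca
Hist1h4f: tctcaaaGGCCCTTTTCAGGGCCacccact
Hist1h3f: ccaaaacGGCTCTTTTAAGAGCCacctcca
Hist1h1d: ctcaaacGGCTCTTTTCAGAGCCacccaca

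Hist1h4c fell to 0.841 FPKM in MUT, against 6.01 FPKM in WT, and Hist1h4f to 0.656 FPKM in MUT, against 5.17 FPKM in WT. Hist1h3f fell to 0.206 FPKM in MUT, against 1.71 FPKM in WT, and Hist1h1d to 0.582 FPKM in MUT, against 4.15 FPKM in WT. In all, the authors' deposited table called 12 histone transcripts, every one lower in MUT. Of 71 listed histone genes 60 reached 1 FPKM, 30 of them in WT alone; over all 71 the median was -1.20, with 57 lower. The 48 genes with symbols that begin with Hist had a median of -1.63, with 45 lower, whereas the 12 other histone genes, mostly replication-independent variants such as H2afz (1983 FPKM in MUT and 1853 FPKM in WT), had a median of 0.06, with 10 higher. The motif was in a transcript of 33 of the 60 histone genes, with a median of -1.59, and the 27 without it had -0.53. It was in 32 of the 48 Hist genes and in 1 of the 12 others, so these 2 medians also differ in the kind of gene. All these sets hold only genes that passed the 1 FPKM limit, and members that reached it in WT alone had to be lower. The median level of the 48 Hist genes was 0.737 FPKM in MUT and 2.89 FPKM in WT. That of the 12 others was 215 FPKM in MUT and 205 FPKM in WT, far from the limit. Hist genes without the motif ranged from -2.64 (Hist1h2bn) to 0.31 (Hist1h2bc). Outside histones 843 genes held it, with a median of 0.00, and 6.41% of 13656 genes held it in all. In HET the Hist genes had a median of -0.81 over WT, from the same WT samples.

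Several other RNAs without a poly(A) tail, or with little of it, were in the same direction. The mitochondrial ribosomal RNA mt-Rnr1 fell to 179 FPKM in MUT, against 316 FPKM in WT, while the mitochondrial mRNA mt-Cytb had 3833 FPKM in MUT and 3264 FPKM in WT. The 82 annotated snoRNA transcripts in the table, 25 of which reached 1 FPKM in WT alone and 0 in MUT alone, had a median log2 ratio of -2.09, with 8.54% above 0. Not all small RNA types were in this direction. The 31 microRNA transcripts with 1 FPKM or more had a median of 0.49, with 20 above 0. Of 26 small nuclear RNA transcripts 11 were above 0, with a median of -0.55. Of all 172 small RNA genes with 1 FPKM or more, 50 were higher in MUT.

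Processed pseudogenes held calls in both directions, whereas the calls among listed ribosomal protein genes were all lower in MUT. Ribosomal protein genes had a median of -0.06 over 85 genes, with 69 lower and 3 called. The called ones were Rps2, Rpl26 and Rps3a2, the last of which is annotated as a processed pseudogene. Rps2 fell to 234 FPKM in MUT, against 478 FPKM in WT, while its processed pseudogene Rps2-ps13 rose to 159 FPKM in MUT, against 79.8 FPKM in WT, and reads of such near-identical copies can be assigned to either. The same holds for Rpsa-ps10, which rose, with 78.0 FPKM in MUT, 81.2 FPKM in HET and 4.27 FPKM in WT, and for Rps3a2, which fell, with 0.934 FPKM in MUT, 58.3 FPKM in HET and 23.5 FPKM in WT. Rps13-ps1 fell, with 0.219 FPKM in MUT, 18.9 FPKM in HET and 9.59 FPKM in WT. The pseudogenes Gm8730, Gm10093 and Gm13443 rose, with log2 ratios of 1.18, 1.17 and 1.10, and the long non-coding RNA 2010320M18Rik fell, with a log2 ratio of -4.62.

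Transcripts annotated with a retained intron, and other transcripts that are not full coding mRNAs, were shifted the other way. Over 4050 retained-intron transcripts with 1 FPKM or more the median log2 ratio was 0.25, with 79.0% above 0, against 56.8% of all 30781 transcripts, although 1 of the 4050 was at an unadjusted p under 0.05. Over all 7384 such transcripts, whatever their level, the median was 0.24. The medians were 0.20 for 2745 processed transcripts, 0.12 for 1576 transcripts subject to nonsense-mediated decay and 0.37 for 274 processed pseudogenes, while 20700 protein-coding transcripts had -0.003. Within 3332 genes that list both kinds and reach 5 FPKM, retained-intron transcripts made up a median of 10.3% of the gene in MUT and 8.44% in WT, and the share was higher in MUT in 2653 genes (79.6%). For HET over WT the share was higher in 71.0% of 3279 genes, from the same WT samples. Calm2, a calmodulin gene, had 353 FPKM in MUT and 281 FPKM in WT for its retained-intron transcript ENSMUST00000150137 (p = 0.48145 in the authors' deposited table). The most abundant retained-intron transcript in MUT, 1 of Ppia, was lower there, at 1246 FPKM in MUT and 1316 FPKM in WT. The shifts of histone, small RNA, pseudogene and retained-intron transcripts moved with the groups, the labels do not say how RNA was selected for the libraries, and the part of RNA quality or library preparation in them was not tested. With the sum taken over protein-coding transcripts alone, the microglia median was 0.48 and the rod median was -0.24, with 28 of 29 rod genes lower.

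**Figure D4:**
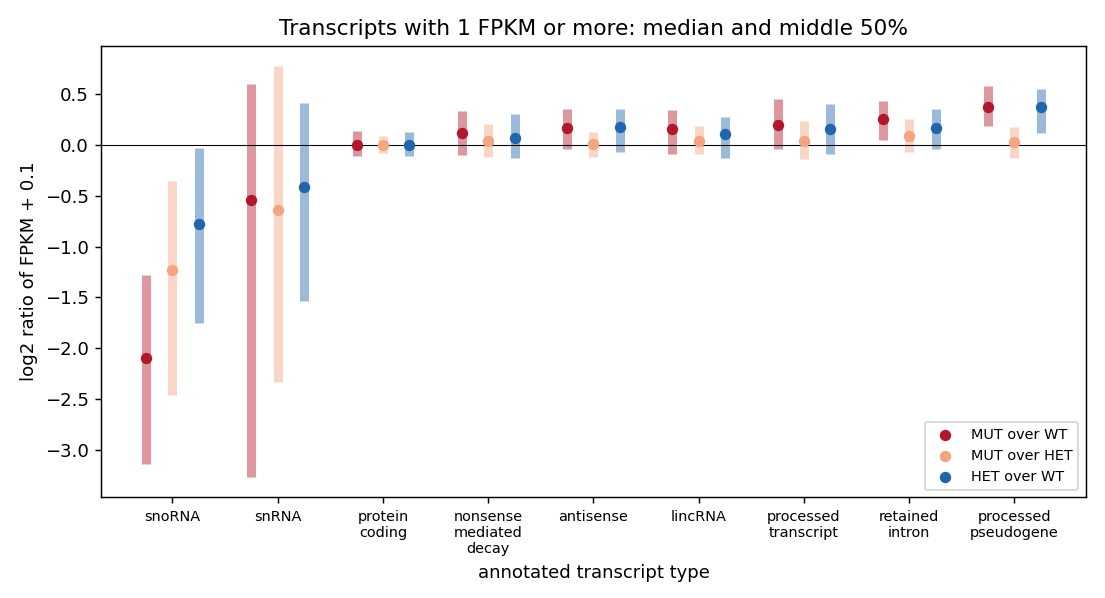
Median (point) and middle 50% (bar) of the log2 ratio of FPKM (0.1 added) for transcripts with 1 FPKM or more by annotated type, for MUT over WT, MUT over HET and HET over WT; the 3 ratios share samples. The medians for MUT over WT are -2.09 for snoRNA, near 0 for protein-coding and 0.25 for retained-intron transcripts.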

How the data were processed

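Total RNA of retinas frozen after dissection was sequenced from Illumina libraries, per the labels' protocols. The submitters' processing notes name Bowtie2, Cufflinks and Cuffdiff and the build mm10. For each pair of groups the authors deposited a Cuffdiff table (3 in all) with 1 pooled FPKM value per transcript and group, per the file headers. Each table also holds a test statistic (a score), p-values, q-values and the authors' log2 fold change, as deposited. The last equalled the log2 ratio of the FPKM values within 4.91e-05. Depth per sample is unknown and no interval can be given. The labels do not say that samples came from separate animals, so the spread behind the p-values may be technical.

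From these files FPKM was summed per gene symbol, a gene was kept if it reached 1 FPKM in MUT or WT, and the log2 ratio was taken with 0.1 FPKM added, which understates changes of low genes. The error after ± is the deposited fold change divided by the test statistic. The deposited p-values do not follow that statistic alone. In the authors' deposited table Ptn had 1.71 with p = 5e-05, and an Atp6v0c transcript had -1.87 with p = 0.03165. The error is therefore not the one behind the q-values. Symbols of 99 rows turned into dates were restored. Gene and transcript types came from GENCODE M21 (99.7% and 98.8% of rows matched); symbols with several gene identifiers numbered 16. Values of 1 group in separately made tables agreed within 0.1 on the log2 scale for 98.7% of genes in MUT and 98.8% in WT. Calls are the authors' q under 0.05, adjusted over their whole table. No new test was computed. The members and lists were chosen with earlier results of these data known. Named genes were all protein-coding genes with a called transcript, the 10 highest and 10 lowest ratios among other genes at unadjusted p under 0.05, the 5 highest and 5 lowest called genes of other classes, and called or outermost list members; others were chosen after their values were seen. Some genes are not reported. Calculations used Python 3.11.15, numpy 2.4.6 and pandas 2.3.3. Simulated data were used to check their arithmetic alone.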

Additional observations from a re-analysis of the deposited data

How the results depend on the processing

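For the 34 list medians (taken to have a direction at a size of 0.05 or more) and the 42 genes named for a call or an unadjusted p-value, the direction was kept in 10 other settings (pseudocounts of 1 and 0.01, minimum levels of 0.5, 5 and 0 FPKM, 2 scalings, the most abundant transcript, transcripts of 500 nt or more, and values from the other 2 tables), with 5 exceptions among the values that could be computed (72 of the 76 at 5 FPKM, 74 at 500 nt or more, 75 with the other tables and 76 elsewhere). With the most abundant transcript the progenitor median was -0.00050 and the Cacna1g ratio 0.13; with no minimum the stroma median was 0.042 and the skeletal muscle median -0.048; with the other 2 tables the horizontal cell median was 0.0070. At q under 0.01 there were 0 called transcripts higher and 0 lower, by construction of the smallest q; with an absolute log2 fold change of 1 or more, 7 higher ones were left. Genes at 2-fold or more numbered 25 higher with a pseudocount of 1, 22 higher and 106 lower at a minimum of 5 FPKM, 88 higher with no minimum, and 20 higher and 62 lower over transcripts of 500 nt or more. Among settings chosen after seeing the data, leaving out histone genes, small RNA genes and pseudogenes left 6 called transcripts higher and 14 lower, and 12 genes 2-fold higher and 38 lower; protein-coding transcripts alone gave 9 genes 2-fold higher and 59 lower. No paired analysis was possible because only pooled values per group were used, and for the same reason no sample could be left out in turn. The pooling limits all values here: no spread between samples and no counting error can be given.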
